A study of Mus musculus with 4 samples.

Results

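The giant proteins titin and nebulin, the α-actinins of the Z-line, the C-zone proteins of the MyBP-C family and the myomesins of the M-band are encoded by 9 genes examined here: Ttn, Neb, Mybpc1, Mybpc2, Actn2, Actn3, Myom1, Myom2 and Myom3. They were taken by symbol from 28989 gene identifiers, and multi-gene entries were not used. The tissue was mouse tibialis anterior, which lifts the foot and is built mainly of fast fibres. It was profiled by TOMO-seq, a method that cuts tissue into serial cryosections and gives the RNA of every slice a barcode of its own before sequencing. All 4 muscles belong to 1 group, with no genotype, strain, age or treatment in the labels, so position along the muscle is the only comparison. The labels do not say whether the muscles came from separate animals. Each section holds every cell type at that level of the muscle, so fewer fibres of a kind and less of a transcript per fibre cannot be told apart.

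A sarcomere is the contractile unit of striated muscle and runs from one Z-line to the next. Titin spans from the Z-line to the M-band and acts as a molecular spring, and nebulin runs along the thin filament and sets its length. The α-actinins crosslink thin filaments at the Z-line, MyBP-C binds the thick filament beside the myosin heads, and myomesins crosslink thick filaments at the M-band. Several of these proteins come in versions that differ between fast and slow or oxidative fibres: Actn3 and Mybpc2 are known from fast fibres, Mybpc1 from slow fibres and also many fast ones, and Myom3 from oxidative fast fibres of type IIA.

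The authors kept 37, 45, 46 and 43 sections of muscles 1 to 4, 171 in all, with 18924848, 17114433, 26989829 and 22878407 counted transcripts. Single sections held 86190 to 1159697 transcripts. For the tests, transcripts were summed over 5 equally long zones per muscle, where zone 1 starts at the first kept section. "First end" means the sections with the lowest barcode numbers, since the direction of cutting is not given in the sources used here. Muscles 1 and 2 carried one set of section barcodes and muscles 3 and 4 another. The pairs also stood apart in fast myosin transcripts: Myh2, the myosin of IIA fibres, took a median of 7.66% and 8.15% of the Myh1, Myh2 and Myh4 transcripts in sections of muscles 1 and 2, and 2.36% and 1.29% in muscles 3 and 4. Myh4 was near the ceiling of the molecular identifiers, so these shares are uncertain. A difference in fibres between the pairs cannot be told apart from the barcode set. Levels are given as TMM-scaled CPM, transcripts per effective library size, where the TMM factor corrects the total for the makeup of the library. The assay counts transcripts at their 3′ ends, so CPM was not divided by gene length. For the tissue label, 6 of 6 skeletal fibre markers were present and took 7.61% of all transcripts, while 4 heart markers together had 34 transcripts. None of the 11 marker lists had a member at 0.

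Ttn was the most abundant of the 9 transcripts in every muscle, followed by Neb, Mybpc2, Actn3, Mybpc1, Myom1, Myom2, Actn2 and, far below, Myom3. Over the sections of muscles 1 to 4, Ttn averaged 3820, 3885, 2719 and 2564 CPM, a mean of 3247 ± 703 CPM (SD, n = 4). Neb averaged 3181, 3327, 1919 and 1629 CPM, with a mean of 2514 ± 865 CPM. Both giants were lower in muscles 3 and 4 than in muscles 1 and 2, and their ranges over the muscles overlapped, although Ttn exceeded Neb in 4 of 4 muscles. Ttn lies on the minus strand of GRCm38 chromosome 2 at 76703980 to 76982547, and Neb on the same strand at 52136647 to 52378474.

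In the MyBP-C and α-actinin pairs, the fast-fibre paralogs outnumbered their partners. Mybpc2 averaged 869, 769, 659 and 784 CPM in muscles 1 to 4, and Mybpc1 averaged 587, 535, 425 and 566 CPM. Mybpc2 was higher than Mybpc1 in every muscle, by a modest margin: it made up 57.8% to 60.3% of the pair's transcripts. Actn3 averaged 709, 656, 637 and 630 CPM, and Actn2 averaged 126, 109, 67 and 56.8 CPM. Actn3 thus held most of the α-actinin transcripts, with 84.6% in muscle 1 (exact binomial 95% interval, counting error only, 84 to 85.1), 85% in muscle 2 (84.4 to 85.6), 89.9% in muscle 3 (89.5 to 90.3) and 91.5% in muscle 4 (91 to 92). The MyBP-C genes lie on the minus strands of chromosome 7, at 44501699 to 44524656 for Mybpc2, and chromosome 10, at 88518279 to 88605152 for Mybpc1. Actn3 lies on the minus strand of chromosome 19 at 4861216 to 4877909, and Actn2 on that of chromosome 13 at 12269426 to 12340760. Mybpc2 and Actn3 were neighbours in the order of levels whose ranges over muscles overlapped, as did those of Myom2 and Actn2.

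Among the myomesins, Myom1 averaged 234, 226, 238 and 235 CPM and Myom2 averaged 140, 132, 110 and 106 CPM in muscles 1 to 4. Myom1 made up 62.2% to 68.5% of the 3 myomesins' transcripts and Myom2 31.2% to 37.5%. Myom1 overlaps Myl12a on the opposite strand, and had 20391 transcripts against 6248 for Myl12a, and the use of strand in the counting is not given, so the Myom1 level is uncertain. The 3 genes lie on plus strands, Myom1 at 71002633 to 71126856 of chromosome 17, Myom2 at 15057653 to 15133541 of chromosome 8 and Myom3 at 135759715 to 135815564 of chromosome 4. Myom3 was nearly absent, with 20, 14, 30 and 24 transcripts over all kept sections of muscles 1 to 4. It had a transcript in 12 of 37, 11 of 45, 21 of 46 and 16 of 43 sections, and it was the 1 member that did not pass the filter on low counts. The authors' filtered tables listed the other 8 members in all 4 muscles and did not list Myom3.

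**Figure D1:**
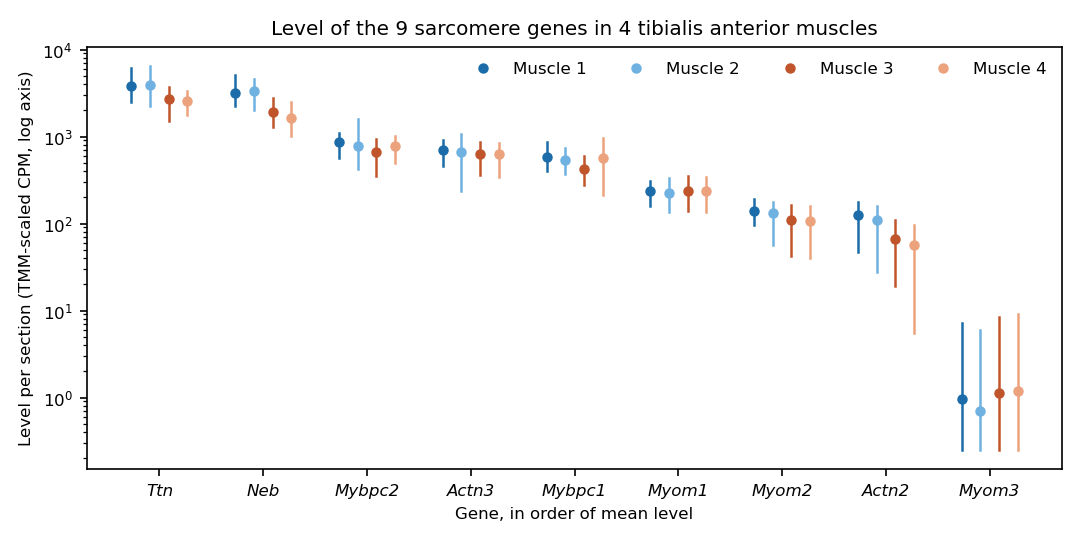
Level of each gene per section in TMM-scaled CPM (log axis) for the 4 muscles. Points are means over the kept sections and lines run from the lowest to the highest section, with sections at 0 drawn at the foot of the line; the means fall from 2564 to 3885 CPM for Ttn to 0.701 to 1.19 CPM for Myom3.

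The muscles differed most in Actn2 and in the giants. The mean of muscles 1 and 2 over that of muscles 3 and 4 was 1.90 for Actn2, 1.83 for Neb, 1.46 for Ttn and 1.26 for Myom2, and muscles 1 and 2 did not overlap muscles 3 and 4 for these 4 genes. Actn3, Myom1 and Myom3 did not overlap either, with ratios of 1.08, 0.972 and 0.714, which made 7 of the 9. On CPM of nuclear-encoded genes 7 of the 9 were also apart, with Mybpc1 and Mybpc2 in place of Actn3 and Myom1. With TMM scaling Myom1 was the steadiest, at 233 ± 5.39 CPM (SD, n = 4), a coefficient of variation of 2.31% between muscles, next to 36.9% for Actn2. On CPM of nuclear-encoded genes it was 5.41% for Myom1, against 4.80% for Actn3. Non-overlap was common in these data: of 1057 genes with at least 30 CPM in every muscle, 68.3% did not overlap between muscles 1 and 2 and muscles 3 and 4, and 31.3% were higher in muscles 1 and 2. Myom3, at 0.701 to 1.19 CPM, was not among the 1057, and its ratio rests on 20, 14, 30 and 24 transcripts in muscles 1 to 4. The barcode set cannot be told apart from the muscles it was used on, so no test of these ratios was made.

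Promoter sequence is shown for 3 members, Actn2 and Mybpc2 because their fitted differences between the ends and the middle of the muscle had opposite signs (only that of Mybpc2 passed the threshold), and Ttn because it was the most abundant. The windows are bases 250 to 31 before the RefSeq start of the gene, 5′ to 3′ on the gene's strand, which is the minus strand for all 3, in RefSeq's GRCm38.p6 table. They are chr13:12340763-12340982 for Actn2, chr7:44524700-44524919 for Mybpc2 and chr2:76982578-76982797 for Ttn, and all lie upstream of the annotated gene. Capitals mark CANNTG, the general E-box letters, only some versions of which myogenic factors such as MyoD bind, and the letters of the MEF2 motif.
Actn2: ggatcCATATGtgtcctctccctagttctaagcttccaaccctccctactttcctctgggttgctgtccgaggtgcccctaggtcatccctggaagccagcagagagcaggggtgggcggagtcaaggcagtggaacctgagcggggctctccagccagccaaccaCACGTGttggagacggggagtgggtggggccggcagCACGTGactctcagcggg
Mybpc2: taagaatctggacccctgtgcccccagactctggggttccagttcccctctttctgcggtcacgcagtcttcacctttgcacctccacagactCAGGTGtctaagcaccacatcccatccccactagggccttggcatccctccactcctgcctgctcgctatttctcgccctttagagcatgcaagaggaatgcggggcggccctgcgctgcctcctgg
Ttn: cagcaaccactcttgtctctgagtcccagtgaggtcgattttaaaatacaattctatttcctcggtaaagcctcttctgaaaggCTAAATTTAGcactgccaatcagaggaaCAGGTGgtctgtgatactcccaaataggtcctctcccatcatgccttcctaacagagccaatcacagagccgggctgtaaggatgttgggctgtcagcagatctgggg
The Actn2 window held CANNTG at 3 places, as CATATG starting 245 bases before the start and as CACGTG starting 84 and 48 bases before. The Mybpc2 window held it once, 157 bases before the start, and the Ttn window once, 138 bases before, beside a MEF2 match that began 166 bases before. CANNTG and the MEF2 motif read the same on both strands, and no 2 matches overlapped. Of the 9 members, 6 had a RefSeq promoter in the table, and all 6 windows held CANNTG, as did 62.1% of 32851 promoter windows of the same length. The version CAGCTG was in 1 of the 6, Mybpc1, which is not among the windows shown, and in 11.4% of all windows. The MEF2 motif was in 1 of the 6, Ttn, and in 2.60% of all windows. A match describes letters and does not show that a factor binds there.

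Along the muscle, 4 of the 8 members that passed the filter differed between zones, Actn3, Mybpc2, Actn2 and Neb, where 3.98% of all 9317 genes did. The adjusted p-values of this test over 5 zones (edgeR quasi-likelihood with muscle as a block, Benjamini-Hochberg over all genes) were 4.05e-05 for Actn3, 0.000744 for Mybpc2, 0.00125 for Actn2 and 0.0190 for Neb. For Mybpc1, Ttn, Myom1 and Myom2 they were 0.332, 0.333, 0.368 and 0.809 by the same edgeR test. With muscle 2 left out, the members called were Actn3 and Mybpc2. The call on Neb was also missing without muscle 3 or 4. Over 17 alternatives that kept the muscle block, the adjusted p ranged from 4.72e-07 to 0.0236 for Actn3, from 4.91e-05 to 0.235 for Mybpc2, from 0.000127 to 0.121 for Actn2 and from 0.000305 to 0.280 for Neb (edgeR, DESeq2 or limma).

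**Figure D2:**
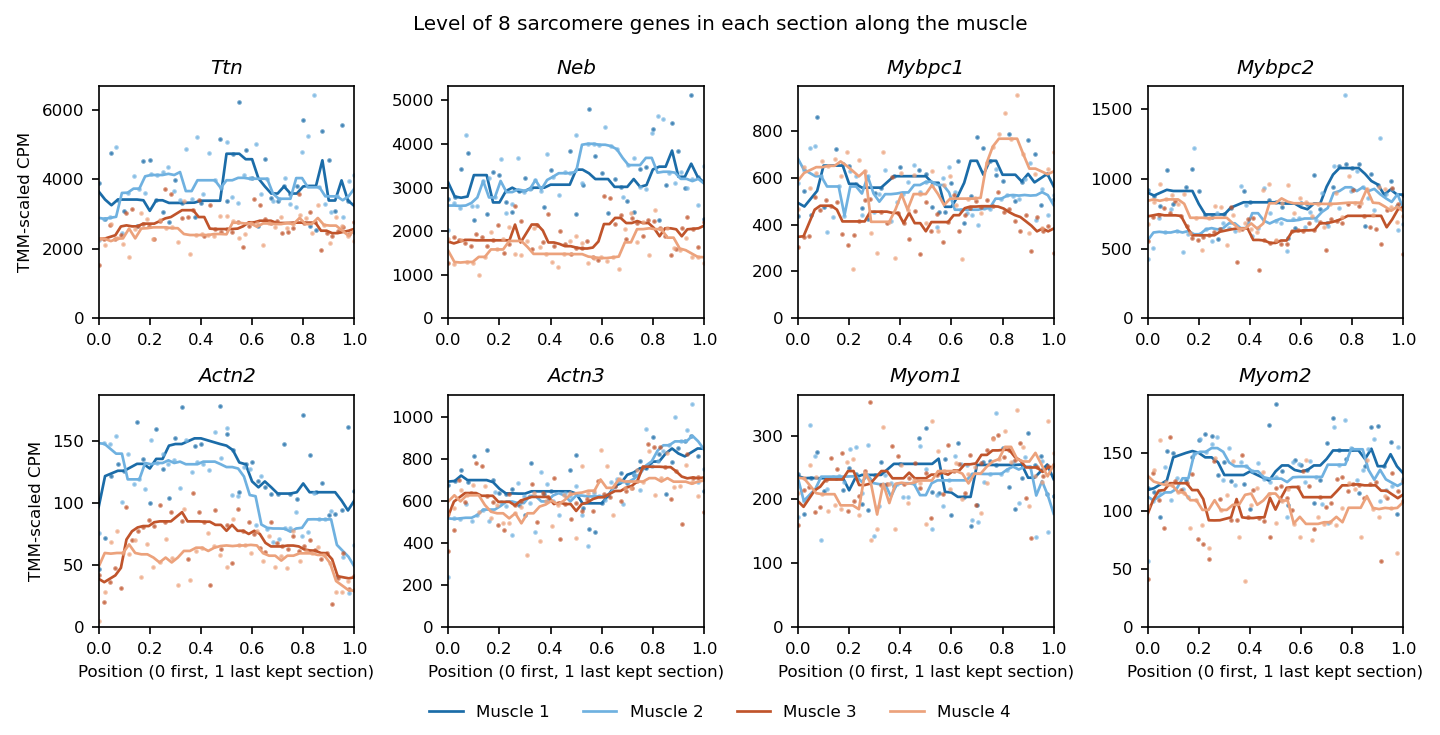
Level of 8 members in each kept section (points, TMM-scaled CPM) against relative position (0 first, 1 last kept section); lines are running medians over 7 sections of a muscle. Summed over zones, Actn3 is highest in zone 5 of all 4 muscles, and Actn2 is lower in zone 5 than in zone 3. Actn2 is also low in the first sections of muscles 1, 3 and 4. The Ttn and Neb lines of muscles 1 and 2 lie above those of muscles 3 and 4.

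The first and the last end were compared as zone 1 minus zone 5. Actn3 and Neb were lower at the first end, 2 of 8 members, against 3.18% of all genes called in either direction, 1.14% lower at the first end and 2.04% higher. Actn3, the α-actinin of fast fibres, had 733, 561, 623 and 614 CPM at the first end of muscles 1 to 4, against 803, 923, 769 and 768 CPM at the last end. The first end was lower in 4 of 4 muscles and the values of the ends did not overlap. The log2 differences in the muscles were -0.13, -0.72, -0.31 and -0.32, and the fitted difference was -0.37 ± 0.08 (SE; edgeR adjusted p = 0.00146). Muscle 2 had the largest difference, and the call was lost without it (-0.25, edgeR adjusted p = 0.153). It held in 15 of 18 alternatives, with adjusted p from 0.000368 to 0.153 in the 17 that kept the muscle block in edgeR, DESeq2 or limma.

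Neb had 2902, 3090.5, 1757 and 1464 CPM at the first end of muscles 1 to 4, against 3734, 3958, 1992 and 2017 CPM at the last end. Every muscle was lower at its first end, although the ranges of the ends overlapped because the muscles differ in level. The fitted log2 difference was -0.34 ± 0.08 (SE; edgeR adjusted p = 0.00869), with -0.36, -0.36, -0.18 and -0.46 in the single muscles. The call on Neb was lost without muscle 2 (-0.33, edgeR adjusted p = 0.0893) or muscle 4 (-0.30, adjusted p = 0.0692), and when corrected transcripts were turned back into observed molecular identifiers (-0.25, adjusted p = 0.136). It held in 11 of 18 alternatives, with adjusted p from 0.000764 to 0.349 in the 17 with the block (edgeR, DESeq2 or limma).

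Ttn, Neb's companion in size, had 3460, 3652, 2620.1 and 2445 CPM at the first end of the 4 muscles, against 4395, 4646, 2660 and 2929 CPM at the last end. It was lower at the first end in every muscle, by little in muscle 3, and the fitted difference of -0.25 ± 0.08 did not pass the threshold (edgeR adjusted p = 0.0860). It did pass in DESeq2 (adjusted p = 0.0343), in edgeR with mitochondrially encoded genes left out (adjusted p = 0.0336) and with the genes near the identifier ceiling left out (adjusted p = 0.0211), with a range up to 0.702 in alternatives with the block. Actn2 differed in the opposite direction, with 126, 132, 66.7 and 58.6 CPM at the first end and 119, 83.9, 57.5 and 54.7 CPM at the last end. The difference of 0.25 ± 0.09 was positive in 4 of 4 muscles and did not pass (edgeR adjusted p = 0.130), and muscle 2 alone stood at 0.65. For Mybpc2, Myom1, Myom2 and Mybpc1 the fitted differences were -0.19 ± 0.07, -0.20 ± 0.07, -0.07 ± 0.08 and -0.03 ± 0.07, with edgeR adjusted p from 0.157 to 0.911. Over the 8 members the median was -0.20, and over all genes tested it was -0.003 (log2).

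Other cell types differed between the ends as well. The 5 erythrocyte markers were all higher at the first end, where their summed level was 1368 to 4204 CPM, against 599.6 to 1685 CPM at the last end. Of 4 tendon markers tested, 3 were lower at the first end, with summed levels of 10.04 to 20.5 CPM there and 33.7 to 134 CPM at the last end. Mitochondrially encoded transcripts took 64.9 ± 1.55% of the counts at the first end and 60.6 ± 4.54% at the last (SD, n = 4). Their part in the differences of Actn3 and Neb was not tested, beyond the fit without mitochondrial genes, in which both were called.

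**Figure D3:**
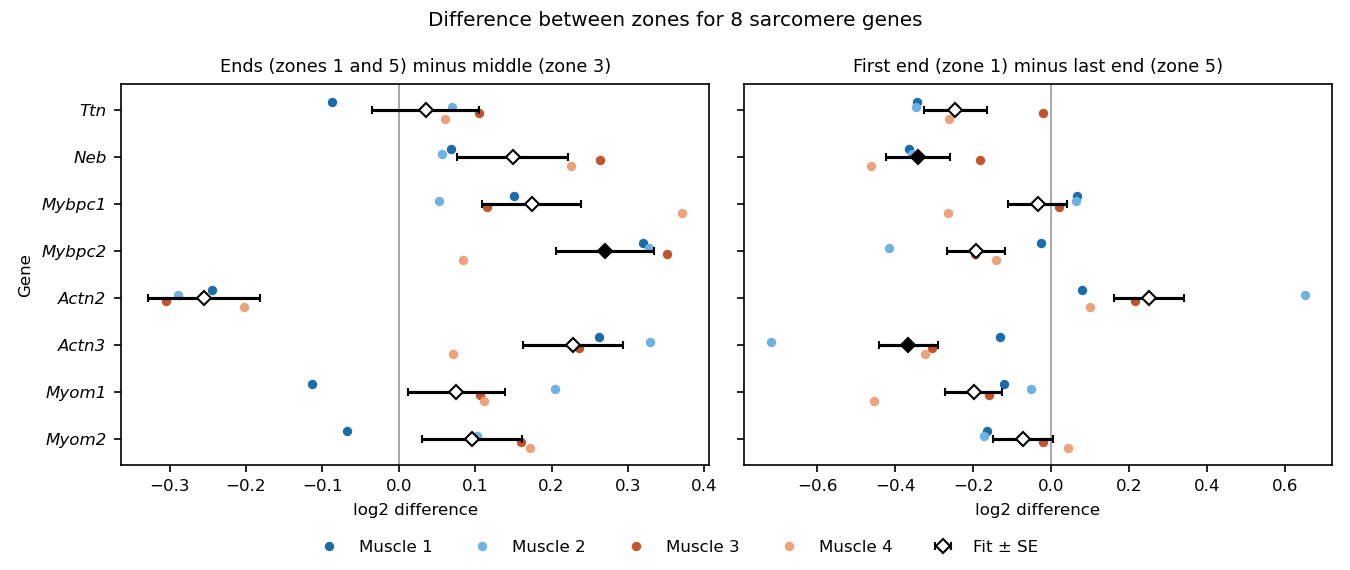
Difference of 8 members between zones on the log2 scale, ends minus middle at left and first end minus last end at right. Coloured points are single muscles and diamonds are the edgeR fit with its SE, filled where the adjusted p was under 0.05: Mybpc2 at left, and Neb and Actn3 at right.

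The ends (the mean of zones 1 and 5) and the middle (zone 3) were compared next. Mybpc2 was higher at the ends, the 1 of 8 members called, against 1.45% of all genes in either direction, 0.623% higher and 0.826% lower. Mybpc2, the MyBP-C of fast fibres, had 925, 742, 678 and 827 CPM in zone 1 and 942, 989.9, 777 and 911 CPM in zone 5 of muscles 1 to 4, against 748, 683, 569 and 819 CPM in the middle. Both ends were above the middle in every muscle, by little in muscle 4. The log2 differences were 0.32, 0.33, 0.35 and 0.08, and the fitted difference was 0.27 ± 0.06 (SE; edgeR adjusted p = 0.0116). The call was lost without muscle 1, 2 or 3, with edgeR adjusted p of 0.0638, 0.0598 and 0.272, while the fitted difference was between 0.24 and 0.26. It held in 10 of 18 alternatives, with adjusted p from 0.000402 to 0.335 in the 17 with the block (edgeR, DESeq2 or limma).

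The α-actinins differed in opposite directions between the ends and the middle, and neither passed the threshold. Actn2 had 126, 132, 66.7 and 58.6 CPM in zone 1 and 119, 83.9, 57.5 and 54.7 CPM in zone 5, against 145, 128, 76.5 and 65.2 CPM in the middle. Averaged over both ends it was lower than the middle in 4 of 4 muscles, with log2 differences of -0.25, -0.29, -0.30 and -0.20, although zone 1 of muscle 2 lay slightly above its middle. The fitted difference was -0.26 ± 0.07 (SE; edgeR adjusted p = 0.0588). Actn3 had 733, 561, 623 and 614 CPM in zone 1 and 803, 923, 769 and 768 CPM in zone 5, against 639.5, 573, 588 and 653 CPM in the middle. Its difference was 0.23 ± 0.07 (SE; edgeR adjusted p = 0.0588), positive in 4 of 4 muscles, and zone 1 lay below the middle in muscles 2 and 4. With 10 zones in place of 5, which compares narrower ends with the centre, edgeR called Actn2 (-0.47, adjusted p = 0.000153) and Actn3 (0.28, adjusted p = 0.00337) besides Mybpc2. Among 18 alternatives Actn2 was called in 2 and Actn3 in 7, with adjusted p up to 0.387 and 0.577 in those with the block (edgeR, DESeq2 or limma).

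The other members differed less from end to middle. The fitted differences were 0.17 ± 0.06 for Mybpc1, 0.15 ± 0.07 for Neb, 0.10 ± 0.07 for Myom2, 0.08 ± 0.06 for Myom1 and 0.04 ± 0.07 for Ttn (SE), with edgeR adjusted p of 0.195, 0.404, 0.606, 0.713 and 0.917. Mybpc1 and Neb were higher at the ends in 4 of 4 muscles, and Ttn, Myom1 and Myom2 in 3 of 4. The median over the 8 members was 0.12 and that over all genes tested was -0.0055. In the limma fit that gives every section equal weight the median of all genes moved to -0.17, and the signs of Ttn, Neb and Myom1 turned.

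Beside these differences, 2 of 2 adipocyte markers tested were higher at the ends, with summed levels of 2.03 to 13.2 CPM in zone 1 and 1.79 to 9.58 CPM in zone 5 against 0.589 to 3.41 CPM in the middle. These were few transcripts, 101 of Adipoq and 162 of Cfd over all kept sections. Of 5 Schwann cell markers, 4 were lower at the ends, with summed levels of 10.8 to 40.6 and 8.93 to 14.4 CPM against 23.9 to 32.9 CPM in the middle. Of 6 markers of fibro-adipogenic progenitors, Dcn and Gsn were lower, with summed levels of 319 to 493 and 400.2 to 564 CPM against 467 to 644 CPM. Of 4 tendon markers tested, Prg4 and Chad were higher in the mean of both ends, but not at each end. The summed tendon level was 10.04 to 20.5 CPM in zone 1, a lower range than the 14.7 to 39.6 CPM of the middle. In zone 5 it was 33.7 to 134 CPM. Prg4 and Chad were lower at the first end than at the last, by -2.12 ± 0.16 and -2.59 ± 0.25 (log2 ± SE). Flt1, 1 of 6 endothelial markers, and C1qb, 1 of 3 macrophage markers tested, were lower. These calls are those of edgeR. DESeq2 gave no adipocyte, Schwann cell, tendon or macrophage marker an adjusted p for this comparison, and of the markers named here it called Dcn. The part of these cells in the difference of Mybpc2 was not tested.

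Because both α-actinins are counted in the same section, their ratio does not depend on how the section was scaled. Actn3 made up 87 ± 4.78%, 85.2 ± 3.63%, 85.6 ± 4.80%, 89.4 ± 2.80% and 91.3 ± 2.92% of the pair in zones 1 to 5 (SD, n = 4). The ends exceeded the middle by 4.72, 4.64, 3.21 and 1.38 percentage points in muscles 1 to 4, a mean of 3.49 ± 1.57 points (SD). The first end minus the last was -1.72, -10.7, -2.73 and -2.10 points. All 4 muscles agreed in sign for both differences, and the exact sign-flip permutation test over muscles (two-sided) gave p = 0.13 for each, the smallest that 4 muscles allow, or 0.417 after Benjamini-Hochberg adjustment over 10 such shares.

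Where Actn3 took less of the pair, Myh2 took more of the fast myosins. Across the sections of a muscle, the Spearman correlation between the Actn3 share and the Myh2 share was -0.70, -0.87, -0.63 and -0.42 in muscles 1 to 4 (37, 45, 46 and 43 sections). The 2 shares come from the same libraries but from different genes. The Actn3 share correlated with sequencing depth at -0.11, -0.23, -0.42 and -0.24, and the Myh2 share at 0.19, 0.29, 0.46 and 0.38. With position along the muscle the Actn3 share correlated at 0.21, 0.84, 0.40 and 0.42. The part of depth and of position in the correlation of the 2 shares was not tested. The Myh2 share itself averaged 4.84%, 5.66%, 6.96%, 4.35% and 3.36% in zones 1 to 5. Myh2 was lower at the ends than in the middle, by -0.71 ± 0.09 on the log2 scale (SE; edgeR adjusted p = 6.17e-07). In muscle 2 the Myh2 share was 10.7% in zone 1, 10.4% in zone 3 and 4.03% in zone 5, whereas in muscles 1, 3 and 4 it was highest in zone 3.

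**Figure D4:**
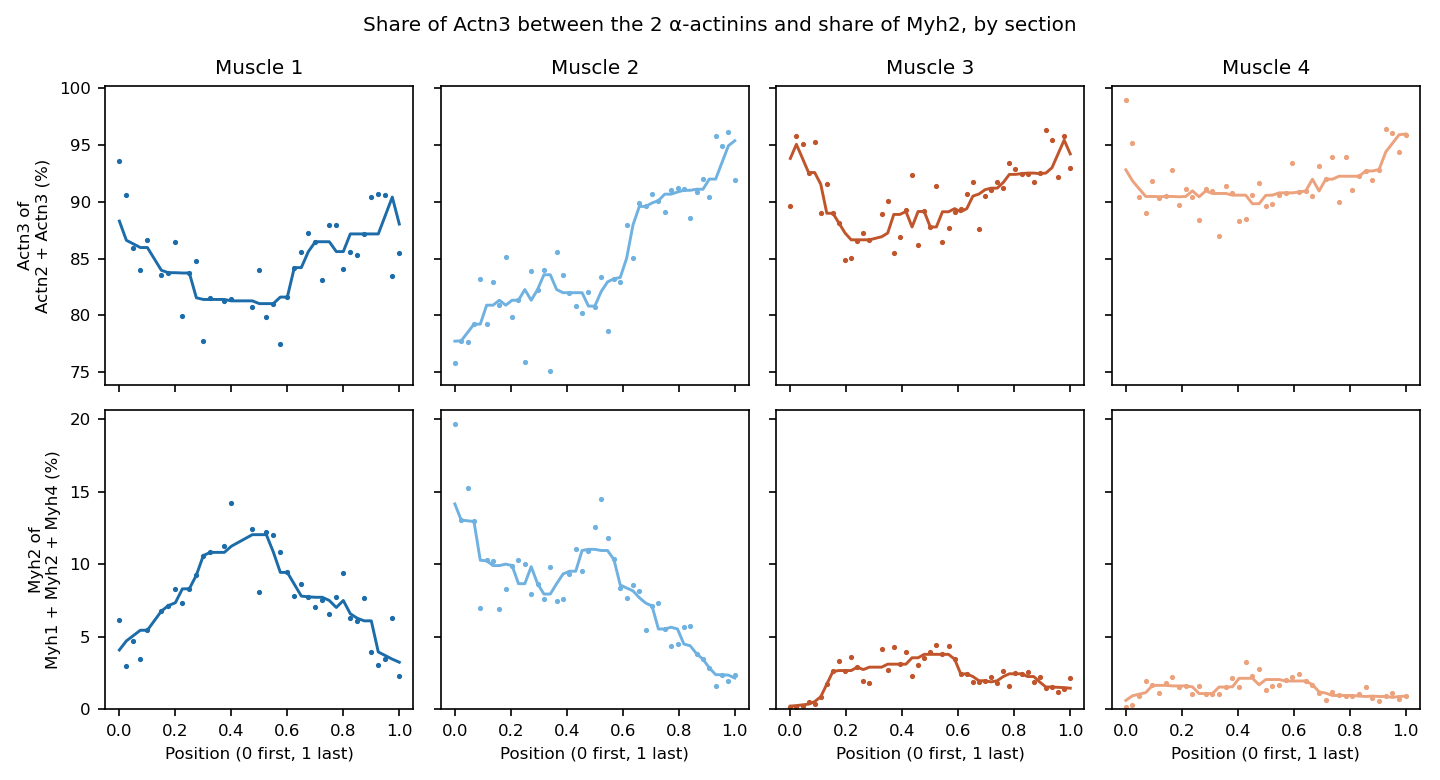
Actn3 as a percent of Actn2 and Actn3 transcripts (top row) and Myh2 as a percent of Myh1, Myh2 and Myh4 transcripts (bottom row) by section in each muscle; points are sections, lines are running medians over 7 sections, and the top axis does not start at 0. The 2 shares run in opposite directions along the muscles, least closely in muscle 4 (Spearman correlation -0.42), where the Myh2 share lies between 0.169% and 3.23%.

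The MyBP-C pair shifted less evenly. Mybpc2 made up 58.4%, 58.1%, 58.1%, 60.8% and 61.1% of the pair in zones 1 to 5. The ends exceeded the middle by 2.81, 4.60 and 3.83 points in muscles 1 to 3, and muscle 4 went the other way at -4.86 points, where Mybpc1 had 768 CPM in zone 5 against 541 CPM in the middle. The exact sign-flip permutation p over muscles was 0.625. Within the myomesins, the share of Myom1 averaged between 64.6% and 66.4% in all 5 zones, with muscles that went opposite ways: first minus last end was 0.57, 1.88, -2.22 and -7.26 points in muscles 1 to 4. Myom3 had 2, 2, 5 and 3 transcripts in zone 1 of muscles 1 to 4 and 1, 1, 2 and 6 in zone 5, against 8, 5, 10 and 6 in the middle. Relative to the middle its share at the ends was smaller in every muscle, by a mean of -0.23 ± 0.19 percentage points (SD; exact permutation p = 0.13, the smallest possible). These are few transcripts, and in muscle 4 the difference was -0.01 points.

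Across the sections within a muscle, the members fell into pairs that varied together. Ttn and Neb had Spearman correlations of 0.79, 0.58, 0.60 and 0.56 in muscles 1 to 4. Mybpc2 and Actn3, both of fast fibres, had 0.58, 0.73, 0.74 and 0.66. Both pairs are described without a p, since sections of a muscle share their preparation and depth. On CPM of nuclear-encoded genes, the mean over muscles was 0.72 for Ttn and Neb, against 0.63 with TMM scaling, and 0.54 for Mybpc2 and Actn3, against 0.68.

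Actn2 followed neither pair. Its correlation with Actn3 was 0.01, -0.48, 0.08 and 0.22, and with the Myh2 share it was 0.48, 0.70, 0.59 and 0.47. With the Myh2 share, Actn3 had correlations of -0.50, -0.74, -0.16 and -0.04 in muscles 1 to 4, with a mean of -0.36. Those of Mybpc2 were -0.31, -0.58, -0.39 and -0.01, with a mean of -0.32, so both were near 0 in muscle 4. Sequencing depth moved with several members: its mean correlation was 0.54 for Actn2, 0.51 for Mybpc1, 0.45 for Myom1, 0.43 for Myom2 and 0.42 for Mybpc2, and 0.16 for Neb. The part of depth in these correlations was not tested. Myom1 and Mybpc1 had a mean correlation of 0.44, which was 0.25 on CPM of nuclear-encoded genes.

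**Figure D5:**
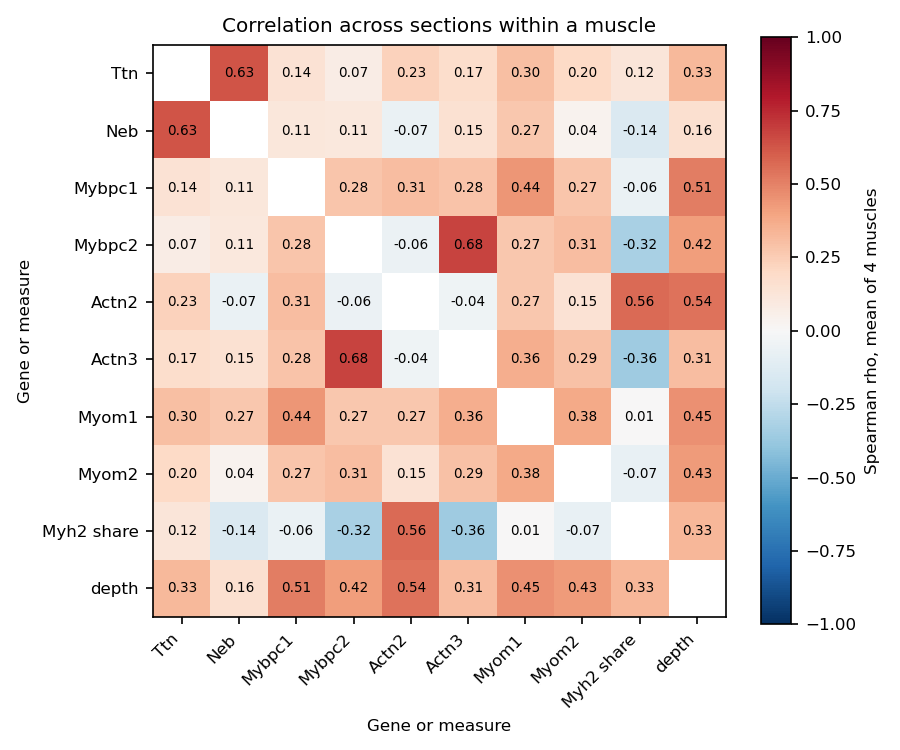
Spearman correlation across sections, as the mean of the 4 muscles, among 8 members, the share of Myh2 in the fast myosins and sequencing depth. Ttn with Neb (0.63) and Mybpc2 with Actn3 (0.68) are the 2 highest values among members, and Actn2 stands with the Myh2 share (0.56) and depth (0.54).

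How much a member varied from section to section also differed. In muscle 4, single sections ranged from 5.50 to 95.8 CPM for Actn2 and from 1769 to 3365 CPM for Ttn. The coefficient of variation over sections was 23.6% to 32.8% for Actn2 in the 4 muscles, of which counting error alone would give 14% to 22.1%. For Ttn it was 13.6% to 25.8%, with 2.55% to 3.28% from counting error. Over the 1057 genes with at least 30 CPM the median was 23.1%, 25.7%, 23.9% and 26.2% in muscles 1 to 4. Ttn lay above that median in muscle 1 and under it in the other 3.

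The genes that followed each member most closely were sought among 1031 of the 1057 genes with at least 30 CPM in every muscle, those with a gene name rather than a placeholder such as a Gm number. For Ttn they were Dmd, which encodes dystrophin, at a mean correlation of 0.64, Neb at 0.63 and the splicing factor Rbfox1 at 0.62. Neb had Ttn, the triad protein gene Trdn (0.56) and Rbfox1 (0.55). The 3 closest to Actn3 were Mybpc2 (0.68), Myh4, the myosin of IIB fibres (0.65), and Pygm, muscle glycogen phosphorylase (0.63), and those of Mybpc2 were Pygm (0.68), Actn3 (0.68) and the glycolytic enzyme gene Tpi1 (0.68). Actn2 was closest to Ckmt2, the creatine kinase of sarcomeric mitochondria (0.65), the imprinted noncoding RNA H19 (0.65) and Myh1, the myosin of IIX fibres (0.65). Mybpc1 had Tle5, Vdac3 and Atp5a1 (0.57, 0.57 and 0.55), Myom1 had Rpl4, Phka1 and Tcap (0.59, 0.50 and 0.48), and Myom2 had Eef2, Des and Ndrg2 (0.44, 0.43 and 0.41). The median correlation with all genes was 0.02 for Neb and 0.09 for Ttn, and lay between 0.17 and 0.24 for the other 6. On CPM of nuclear-encoded genes all 3 genes remained among the closest 3 for Ttn, and for Mybpc1 1 of 3 did. Myh4 was then no longer among the closest 3 for Actn3 (0.48), nor Tpi1 for Mybpc2 (0.43) or H19 for Actn2 (0.54). The same held for Rbfox1 with Neb, Tcap with Myom1, and Des and Ndrg2 with Myom2. The other genes named for these members remained.

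The partners of these proteins gave a wider view of the same zones. Of 15 Z-disc partners tested, 3 were lower at the ends and none higher, with a list median of 0.04 against -0.0055 for all genes: Myoz2, a calcineurin-binding Z-disc protein known from slow fibres, by -0.81 ± 0.14, Csrp3, the muscle LIM protein, by -0.80 ± 0.19, and Flnc, filamin C, by -0.40 ± 0.10 (log2 ± SE; edgeR adjusted p = 0.000213, 0.0160 and 0.0250). DESeq2 called Flnc alone among the Z-disc partners in this comparison, and gave 13 of the 15 an adjusted p. Tcap, the titin cap, differed by 0.0057 ± 0.06 and Myot, myotilin, by 0.001 ± 0.06. Between first and last end, 1 of the 15, the small heat shock protein gene Cryab, was higher at the first end (0.35 ± 0.08; edgeR adjusted p = 0.00719).

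Of 21 partners of titin, nebulin and the M-band tested, 1 was higher and 2 were lower at the ends. Ankrd1, a titin-binding ankyrin repeat protein induced by stretch, was higher by 2.24 ± 0.28 (log2 ± SE; edgeR adjusted p = 2.41e-07). Its relative Ankrd2 was lower by -0.60 ± 0.13, and Lmod2, which acts at the pointed end of the thin filament, by -0.63 ± 0.13 (log2 ± SE; edgeR adjusted p = 0.00282 for Ankrd2 and 0.00297 for Lmod2). DESeq2 gave none of these 3 an adjusted p for this comparison. Between first and last end none of the 21 was called by edgeR or DESeq2, and 4 had an unadjusted edgeR p under 0.05, as did 1257 of all 9317 genes. Of 5 other genes of the same families that could be tested, none was called in either comparison by edgeR or DESeq2, with 1 at an unadjusted edgeR p under 0.05 in each. Of all 9317 genes, 1105 had such a p for ends versus middle and 1257 for first versus last end.

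Genes of the fibre types moved in these zones too. Of 12 fast-fibre genes, Casq1, the calsequestrin of fast fibres (0.38 ± 0.08), and Myl1 (0.26 ± 0.07) were higher at the ends, and the list median was 0.14. Between the ends, Myh4 was lower at the first end (-0.31 ± 0.08) and Myh1 was higher (0.29 ± 0.08). Myh4 and Myl1 were near the identifier ceiling, which makes their values uncertain. Of 7 slow or oxidative genes tested, Myh2 and Myl3 (-0.92 ± 0.13) were lower at the ends, and the list median was -0.20. At the first end Mb, myoglobin (0.45 ± 0.08), Casq2 (0.73 ± 0.14), Tpm3 (0.72 ± 0.17) and Fabp3, the heart-type fatty acid binding protein (0.80 ± 0.09), were higher, with a list median of 0.45. All of these were called by edgeR at an adjusted p under 0.05 over all genes. In both comparisons, and whether or not they passed the threshold, the fitted differences of Actn3 and Mybpc2 had the signs of those of Casq1 and Myh4, and the differences of Actn2 had the signs of those of Myh2 (0.17 ± 0.12 between first and last end). Ttn, Neb, Mybpc1, Myom1 and Myom2 had the signs of Actn3 and Mybpc2 as well, so these signs were not particular to the fast-fibre members. Myh1, of the fast-fibre list, had the signs of Actn2 (-0.17 ± 0.07 for ends minus middle).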

How the data were processed

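Mouse tibialis anterior muscles (4 samples) were profiled by TOMO-seq with CEL-Seq2, which counts transcript 3′ ends; per the labels' protocols, each primer had 6 identifier bases and then 8 barcode bases. Per the submitters' processing notes, STAR 2.7.7a and the GRCm38 build were used. Which program did the counting, with which annotation, and whether strand was used is not given in the sources used here. Per gene and barcode, the deposited tables hold estimated counts. From their values, these are whole numbers of identifiers corrected for collisions among 4096, and counts were rounded after summing. The authors' filtered tables hold a normalized signal and were used to learn which sections were kept and which genes were listed.

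Entries naming several genes (0.58% to 0.93% of counts) were left out. Symbols were matched to GENCODE M21 (28907 of 28989 identifiers), which gave the coordinates. Zone sums (20, with 1989683 to 6604613 transcripts) went into edgeR 4.0.16 (R 4.3.3; TMM scaling, filterByExpr, quasi-likelihood F-test with muscle as a block, Benjamini-Hochberg threshold 0.05) over 9317 genes, at a biological coefficient of variation of 7.03%. The fit was checked on simulated data. DESeq2 1.42.0, limma 3.58.1 on log2(CPM + 1), other zone numbers, scalings, filters and left-out muscles were alternatives. Correlations, shares and exact tests used Python 3.11.15 with numpy 2.4.6, scipy 1.17.1 and pandas 2.3.3. The muscle block takes out differences in level between muscles. In fits that keep it, p-values therefore measure how zone differences spread over these 4 muscles. Nothing in the labels says that the muscles are separate animals, so this spread may be technical, and the fit pools it over zones and muscles. Genes near the identifier ceiling used at least 90% of the 4096 in a kept section; Ttn reached 82.8% and Neb 73.0%. Genes named beside the members are the 9 members, those of 5 lists that passed the threshold with a few that did not, chosen after their values were seen, and the 3 genes closest to each member in correlation. The members and lists were chosen with earlier results of these data known.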

Additional observations from a re-analysis of the deposited data

Results flagged for a closer look

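Of 35 groups of 4 muscles examined, 4 held a muscle whose gap to the nearest other exceeded Dixon's 95% critical value, and chance alone flags about 1 in 20 such groups. Muscle 2 stood apart in the share of Actn3 among the α-actinins, which was -10.7 percentage points at its first end relative to its last, against -1.72 to -2.73 points in the other 3 muscles. Muscle 2 also stood apart in the share of Myom2 among the myomesins, at -1.58 points for the ends minus the middle, where the other 3 were positive. Muscle 4 stood apart in 2 measures of the MyBP-C pair. Its Mybpc1 difference between first and last end was -0.27 on the log2 scale, where the other muscles were slightly positive, and its Mybpc2 difference between ends and middle was 0.084, against 0.32 to 0.35 in the others.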

How the results depend on the processing

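The limits of the zone results lie in the number of muscles and in the level of the rarer members. Actn2 averaged 56.8 to 126 CPM and Myom3 about 1 CPM, so counting error takes much of their spread. With no filter on low counts Myom3 had a fitted difference between ends and middle of -1.06 (edgeR adjusted p = 0.458, with an unadjusted p under 0.05). On CPM of nuclear-encoded genes every level was 2.58 to 3.04 times as high, with the order of the members unchanged in each muscle, and 12 of 36 correlations moved by more than their SD over muscles, as with Mybpc2 and Actn2 (-0.36, against -0.056). With muscles left out in turn, the members called numbered 0 to 2 of 8 for ends versus middle (0 without muscle 1, 2 or 3), 0 to 2 for first versus last end (0 without muscle 2) and 2 to 4 for any zone, and all genes called numbered 38 to 183, 87 to 201 and 173 to 327, of 9051 to 9472 tested. Leaving out a muscle lowers the number of sums, and any other cause of the lost calls was not tested. Where none of the members passed in edgeR, 4 to 7 of 8 had an unadjusted p under 0.05 in these fits. So did 735 to 1045 of the 9051 to 9366 genes tested there.

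For ends versus middle, 2 members were called with DESeq2 size factors, in DESeq2, without mitochondrially encoded genes, without genes near the identifier ceiling and without the outermost sections. In that order, all genes called numbered 134 of 9317, 102 of 9317 (7767 without an adjusted p), 140 of 9240, 140 of 9217 and 157 of 9382. With 10 zones 3 were called, and 0 with 3 zones, in muscles 1 and 2 alone, in muscles 3 and 4 alone and with no muscle block (4, 3, 4 and 1 members at an unadjusted p under 0.05, and 884, 774, 865 and 193 of all genes). All genes called then numbered 42 of 10423 with 3 zones, 333 of 7316 with 10, 59 of 6944 in thinned sums and 215 of 9317 in limma with equal section weights. They numbered 44 of 8725 in muscles 1 and 2, 55 of 9208 in muscles 3 and 4, and 0 of 9317 with no muscle block (193 at an unadjusted p under 0.05). For first versus last end, 4 members were called with 3 zones, 1 with observed identifiers, 1 with 10 zones, 1 in limma, 0 in muscles 3 and 4 alone and 0 with no muscle block. All genes called numbered 350 of 10423 with 3 zones, 286 of 9363 with observed identifiers, 131 of 7316 with 10 zones and 192 of 6944 in thinned sums. They numbered 143 of 9317 in limma, 161 of 8725 and 74 of 9208 in the 2 barcode sets and 1 of 9317 with no muscle block. For any zone, no muscle block gave 0 members and 4 of 9317 genes (1 member and 158 of all genes at an unadjusted p under 0.05). Muscles 3 and 4 alone gave 2 members and 158 of 9208 genes, and muscles 1 and 2 alone gave 179 of 8725 genes.

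No member turned its sign under any of these alternatives in the comparison in which it was called. For ends versus middle, Ttn turned to -0.0078 with 3 zones, -0.13 in limma and -0.0069 in muscles 1 and 2, and Neb and Myom1 turned to -0.0082 and -0.026 in limma, where the median of all genes was -0.17. For first versus last end, Mybpc1 turned to 0.077 with 10 zones, 0.0054 in limma, 0.072 in muscles 1 and 2 and 0.052 without muscle 4 (the lowest value was -0.14, in muscles 3 and 4, and -0.067 with a muscle left out, muscle 1), and Myom2 to 0.0041 in thinned sums and 0.0035 in muscles 3 and 4. The cause was not tested. Among the shares, those of the myomesins turned when single muscles were left out: Myom1 ends minus middle ranged from -0.69 to 0.23 points (0.046 without muscle 1, 0.062 without muscle 3), Myom1 first minus last end from -2.97 to 0.075, Myom2 first minus last end from -0.21 to 2.96, and Myom3 first minus last end from -0.014 to 0.13 (-0.0018 without muscle 1). All comparisons of zones were paired within muscles, except in the fit with no muscle block.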
